A study of Mus musculus with 8 samples.

Results

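Cells meet superoxide and hydrogen peroxide with a set of antioxidant and detoxifying enzymes, and 57 mouse genes of this set were read here in thyroids exposed to 99mTcO4- and in control thyroids. The members were taken by gene symbol from 10 classes: superoxide dismutases and catalase, glutathione peroxidases, peroxiredoxins, the thioredoxin and glutaredoxin system, glutathione synthesis and recycling, glutathione S-transferases, the regulator Nfe2l2 (Nrf2) with its partner Keap1, quinone, haem and aldehyde enzymes, ferritin, and the enzymes that make NADPH. The array carried 56 of the 57, through 85 of its 55681 probes. Gsta1 had no probe under that symbol.

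RNA of each thyroid was hybridised to an Agilent mouse array of its own (8 arrays, 1 colour), and the signal of a spot follows how much RNA its probe has bound. The mice were young adult female Balb/c animals on a normal-iodide diet. The control group (Ct, n = 4, numbered 1 to 4) was untreated or given saline, as the study describes it in different places, and the exposed group (Tc, n = 4, named S539, S588, S589 and S590) had received the technetium-99m radioisotope as pertechnetate, which thyrocytes take up through the iodide transporter, about a day before RNA was taken. The study calls the arrays of a group biological replicates, and the labels do not tie them to animals.

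Superoxide dismutases turn superoxide into hydrogen peroxide, and catalase, the glutathione peroxidases and the peroxiredoxins remove peroxide. The glutathione peroxidases draw on glutathione and the peroxiredoxins mostly on thioredoxin, both of which are restored at the cost of NADPH. Glutathione S-transferases join glutathione to reactive compounds. Nfe2l2 is a transcription factor that Keap1 marks for degradation until oxidants or electrophiles modify Keap1, after which Nfe2l2 binds antioxidant response elements near many of these genes. In the thyroid, follicular cells make hydrogen peroxide to iodinate thyroglobulin, so these enzymes work there without any outside stress.

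All 8 thyrocyte markers read here (Tg, Tshr, Slc5a5, Pax8, Nkx2-1, Foxe1, Iyd and Duox2) passed the scanner software's test against background on each of the 8 arrays. Of these Slc5a5, the iodide transporter, fell by 3.53 on the log2 scale (limma, adjusted p = 0.0137) and no other passed the threshold. The mean of the 8 markers, after each was centred over the 8 arrays, lay between -0.22 and 0.87 on the control arrays and between -0.38 and -0.25 on the exposed arrays. The groups were apart by a narrow margin (difference -0.649, exact permutation p = 0.0286). Without Slc5a5 the mean lay between -0.40 and 0.62 and between -0.23 and -0.04, highest on controls 2 and 3. It then overlapped between the groups (difference -0.236, exact permutation p = 0.371). Markers of developing T cells (8 of 8 on the array, 3 of them above background everywhere) had a centred mean of 3.95 on control 1 and 3.01 on control 2, against -1.57 to -0.12 on the other arrays. Skeletal muscle markers (6 of 6 above background on all arrays) ranged from -0.18 to 1.08 on the control arrays and from -1.47 to 0.62 on the exposed ones. Over the 10 lists of other cell types, 1 of 48 markers passed, where 1.2% of all RefSeq genes did. The groups did not overlap for 4 of the 48, where they did not for 11.7% of all RefSeq genes, so this count is not above the background. The marker that passed was Foxj1, a factor of ciliated cells on the airway list, which rose by 2.49 (adjusted p = 0.0213). The other airway markers were all lower on average, between -0.95 (Cyp2f2) and -0.10 (Muc5b). The score of the 5 airway markers ranged from -0.37 to 0.92 on the control and from -1.30 to 1.04 on the exposed arrays. The groups were also apart for Csf1r (-0.63, adjusted p = 0.149) and Emr1 (-0.58, adjusted p = 0.362), of the 6 macrophage markers. Of the others on that list, Cd68 was higher on average (0.63) and the rest were lower, with overlapping groups. Matn1, a cartilage marker, also had groups apart (1.47, adjusted p = 0.110) and was above background on no control. The other cartilage markers differed by 1.51 (Col2a1), -0.33 (Acan) and -0.31 (Comp), with overlapping groups. The macrophage score lay between -0.03 and 0.24 on the control arrays and between -0.36 and 0.06 on the exposed arrays (difference -0.303, exact permutation p = 0.0857). Scores of adipocytes, red blood cells, parathyroid, C cells, endothelium and cartilage overlapped between the groups. The part of these cell types in the members' values was not tested. In whole thyroids, fewer cells of a type and less RNA per cell cannot be told apart. The 8 arrays shared 1 slide and 1 scan, the exposed thyroids filling its first row and the controls its second, so that position and group cannot be told apart either.

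Aox1 (aldehyde oxidase, a molybdenum enzyme of the cytosol that oxidises aldehydes and aromatic rings) was the 1 member gene of 56 that passed the threshold on its main probe, the RefSeq probe of a gene with the highest mean signal. It was higher in the 99mTcO4- exposed thyroids, by 2.48-fold. Over all 21021 RefSeq genes read in this way, 252 (1.2%) passed, of which 190 were higher (0.904%) and 62 lower (0.295%). In this fit 1 of 56 (1.79%) is thus near the background. No member passed in the lower direction by limma, where 5 had an unadjusted p under 0.05. The median log2 difference over the 56 members, exposed minus control, was -0.0093, with 28 above 0 and 28 below, against -0.03 over all RefSeq genes. The number of calls depended on the processing. In the log2 values that the authors deposited, 4 of 56 members passed, all higher (Aox1, Prdx6, Gss and Hmox1). By probe, 6 of 85 member probes passed there, against 955 of all 55681 probes.

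The groups did not overlap for 11 of the 56 members (19.6%), against 11.7% of all RefSeq genes and 14.1% of the 13767 whose mean log2 signal was 7 or more. Of these members 6 were higher in every exposed thyroid (Aox1, Prdx6, Gss, Hmox1, Nfe2l2 and Txnrd1), where 5.44% of all RefSeq genes were. The other 5 were lower (Gstt3, Me1, Gstm5, Gstt2 and Sod3), where 6.21% of all RefSeq genes were. Among the 13767 brighter genes, 983 were higher and 964 lower in every exposed thyroid. At an unadjusted p under 0.05 there were 12 members (7 higher, 5 lower, 21.4%) against 14.6% of all RefSeq genes (6.47% higher and 8.13% lower). Of the 85 member probes 2 passed after adjustment (2.35%), against 0.781% of all probes, namely the Aox1 probe and 1 of the 4 Prdx6 probes. Of the 56 members 55 passed the test against background on each array. The exception was Gsta2, above background on 1 control and 1 exposed array, with log2 signals between 4.46 and 5.58.

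**Figure D1:**
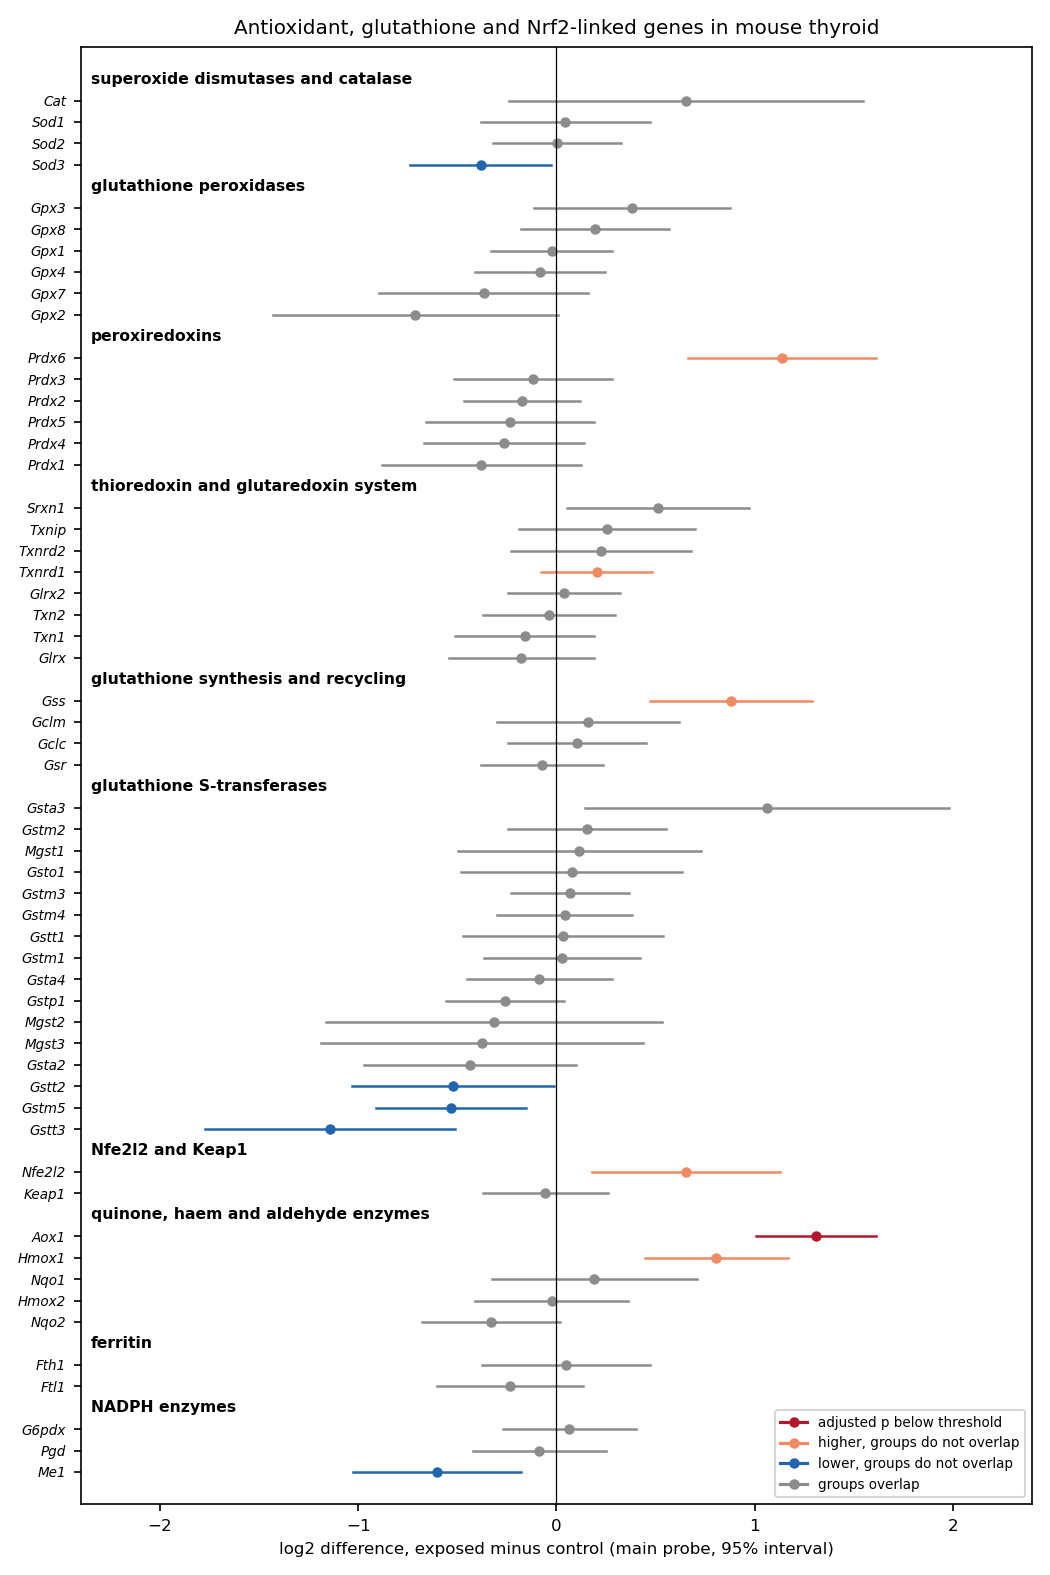
Each point is the log2 difference between the 4 exposed and the 4 control arrays for the main probe of a member, with its 95% interval from limma, and genes are grouped by role. The Aox1 point, at 1.31, is the only one in the colour for an adjusted p below the threshold, and most intervals cross 0.

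The Aox1 probe covers chr1:58163025-58163084 in mm9. Its log2 signal was 12.50, 12.37, 12.37 and 12.69 on controls 1 to 4 and 13.72, 13.87, 13.86 and 13.72 on S539, S588, S589 and S590. Every exposed thyroid stood more than a log2 unit above every control, and the SDs within the groups were 0.151 and 0.0814 (n = 4 each). The difference was 1.31 (SE 0.13, limma adjusted p = 0.00814), with an exact permutation p of 0.0286, the smallest that 4 arrays against 4 can give (2-sided). It passed with each array left out in turn (1.27 to 1.38, adjusted p 0.0173 to 0.0438). Without both control arrays that had high thymocyte markers the difference was 1.26 and the adjusted p 0.0863.

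Aox1 lies in a cluster of aldehyde oxidase genes on the same chromosome, and the other probes of that cluster were looked at after the Aox1 value had been seen. No run of 20 bases of the Aox1 probe occurs in a probe of another gene name on the array. Aox3 was at 6.84 ± 0.62 in the controls and 5.97 ± 0.38 in the exposed thyroids (SD, n = 4), a difference of -0.88 (adjusted p = 0.358). Aox4 and Aox3l1 were not well above background on any array. The neighbour that could be measured was thus lower on average in the exposed thyroids, with overlapping groups.

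The first 30 of the 60 bases of the Aox1 probe, and the 250 bases before the Aox1 transcription start (RefSeq, GRCm38.p6, chr1:58029719-58029968, plus strand), are shown because this gene carries the single call. The 250 bases before the start of Gss, the next promoter on the list of higher members (chr2:155592811-155593060, minus strand), are shown beside them.
Aox1 probe, bases 1 to 30: ccagaatcatctacagcactgctttacatg
Aox1 promoter: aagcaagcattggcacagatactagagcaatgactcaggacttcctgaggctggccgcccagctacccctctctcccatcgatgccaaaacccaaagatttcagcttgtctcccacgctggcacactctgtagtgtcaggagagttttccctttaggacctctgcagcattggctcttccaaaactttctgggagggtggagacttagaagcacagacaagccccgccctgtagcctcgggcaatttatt
Gss promoter: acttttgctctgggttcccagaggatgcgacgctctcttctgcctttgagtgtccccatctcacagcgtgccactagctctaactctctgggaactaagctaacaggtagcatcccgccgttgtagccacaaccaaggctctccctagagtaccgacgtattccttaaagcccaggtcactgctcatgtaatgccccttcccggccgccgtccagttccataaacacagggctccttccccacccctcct
Neither promoter stretch has capitals, because the letters TGACNNNGC, the core of the antioxidant response element, were found on neither strand.

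The other enzymes of this class did not pass. Hmox1 (haem oxygenase, which is inducible and breaks haem down) had log2 signals of 11.16, 11.11, 10.92 and 10.68 on the controls and 11.97, 11.64, 11.72 and 11.76 on the exposed arrays. Each exposed thyroid lay above each control. The difference was 0.81 (SE 0.16, adjusted p = 0.0794), and a second, dimmer Hmox1 probe also had groups apart, at 0.49 (adjusted p = 0.391). Hmox1 passed the threshold with other background treatments of the same spots (log2 difference 0.85 and adjusted p = 0.0129 with normexp). Hmox2, the constitutive haem oxygenase, differed by -0.02 (95% interval -0.41 to 0.36).

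Nqo1, a quinone reductase often used as a reporter of Nfe2l2 activity, was at 8.17, 8.28, 7.77 and 8.61 on the controls and 8.12, 8.66, 8.19 and 8.62 on the exposed arrays. The groups overlapped almost completely, and the difference was 0.19 (95% interval -0.32 to 0.71, adjusted p = 0.748). Among the controls it was lowest on control 3 and highest on control 4, and among the exposed arrays it was lower on S539 and S589, as was the skeletal muscle score, whose part in these values was not tested. Nqo2 differed by -0.33 (95% interval -0.68 to 0.02, adjusted p = 0.432).

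Nfe2l2 itself had log2 signals of 12.80, 13.18, 13.67 and 13.47 on the controls and 14.13, 13.84, 13.90 and 13.86 on the exposed arrays. The exposed arrays were all above the controls, but control 3 was close below the lowest of them. The difference was 0.65 (95% interval 0.18 to 1.13, adjusted p = 0.264). Keap1, whose protein holds Nfe2l2 back, was at 13.06, 12.74, 12.73 and 12.72 on the controls and 12.88, 12.69, 12.79 and 12.68 on the exposed arrays. It differed by -0.06 (95% interval -0.37 to 0.26), and control 1 stood apart from the other controls.

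**Figure D2:**
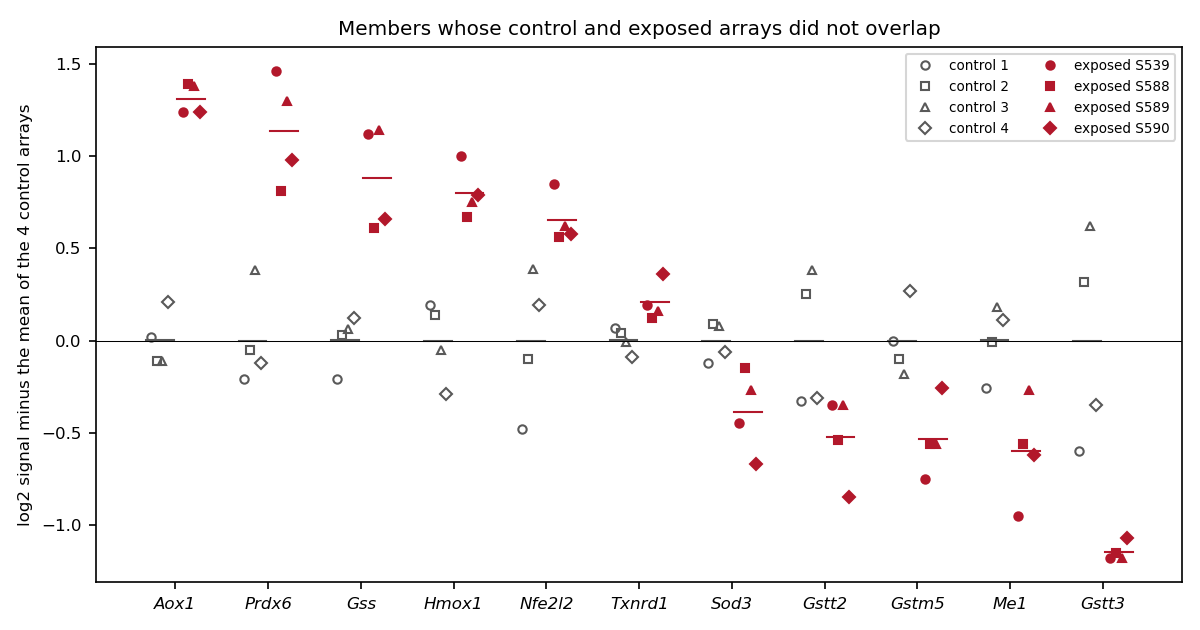
Log2 signal of the 11 members whose groups did not overlap, for each array, after subtracting the mean of the 4 control arrays; open grey symbols are controls, filled red symbols are exposed thyroids and short lines are group means. Aox1 shows the widest gap between groups, while the controls of Gstt3 and Nfe2l2 are spread over about a log2 unit.

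Peroxiredoxin 6, the peroxiredoxin with a single catalytic cysteine, which uses glutathione and also has a phospholipase activity, gave the largest difference among the peroxide-removing enzymes. Its main probe read 15.82, 15.98, 16.41 and 15.91 on the controls and 17.49, 16.84, 17.33 and 17.01 on the exposed arrays. The groups were apart, with S539 the highest. The difference was 1.14 (SE 0.20, 2.2-fold, adjusted p = 0.0616), above the threshold.

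Prdx6 was read by 4 probes, which are shown by their first 30 bases because they lie in separate places of the gene (mm9, minus strand) and gave differences of like size.
Prdx6 probe 1 (main), chr1:163171138-163171197: gtggccatttctgaattctgctttttgagg
Prdx6 probe 2, chr1:163171791-163171850: tctttgcggaaattggggctgcatctgcac
Prdx6 probe 3, chr1:163173715-163173774: attctcagagtggttgactctctccagctg
Prdx6 probe 4, chr1:163170713-163170772: ggttgagaaccactaatggttaggtagtct
Probe 2 read 14.80, 14.83, 15.19 and 14.66 on the controls and 16.39, 15.73, 16.20 and 15.84 on the exposed arrays (difference 1.17, adjusted p = 0.0509). Probe 3 read 13.98, 13.89, 14.17 and 13.85 against 15.65, 14.91, 15.37 and 14.98, and its difference of 1.25 (SE 0.20) passed the threshold (adjusted p = 0.0369). Probe 4 was dim, above background on 2 of 4 controls and on all exposed arrays, and differed by 1.46 (adjusted p = 0.0994). On every one of the 4 probes each exposed array was above each control, and the exposed arrays kept 1 order at the top and the bottom, with S539 highest and S588 lowest. Whether the gene is called therefore turns on the probe: the mean of its probes differed by 1.26 (adjusted p = 0.029).

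**Figure D3:**
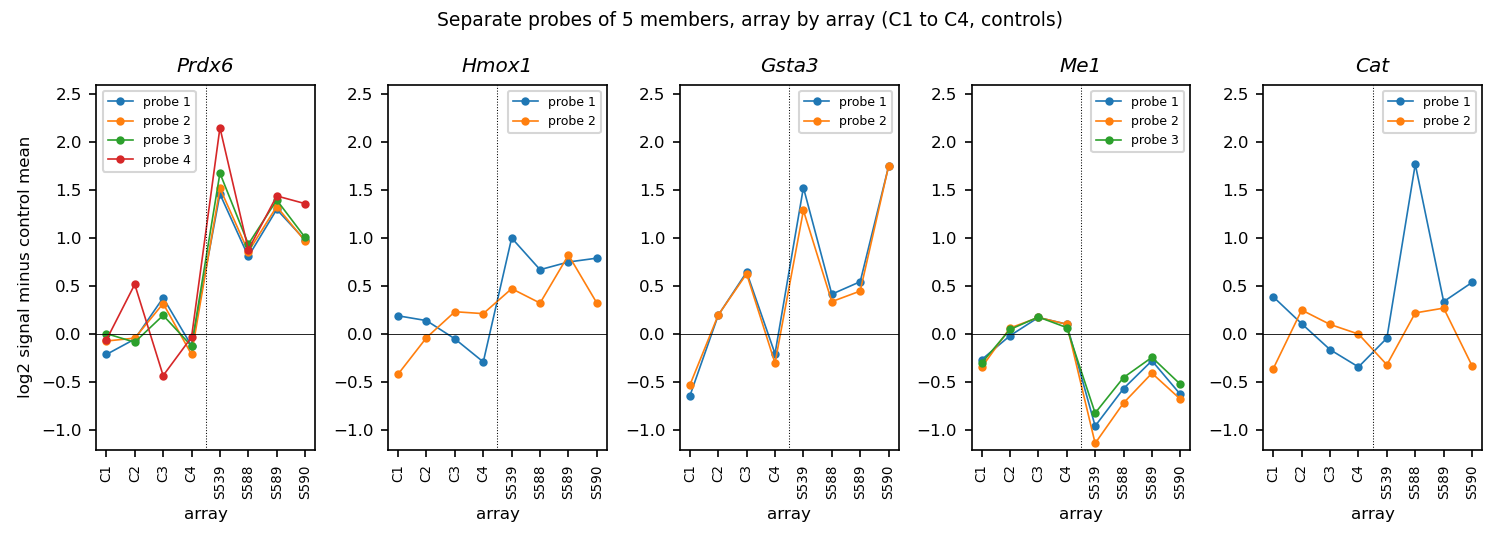
Log2 signal of each probe of Prdx6, Hmox1, Gsta3, Me1 and Cat on each array, after subtracting that probe's control mean; probes are numbered from bright to dim, and the dotted line separates controls from exposed thyroids. The probes of Prdx6, Gsta3 and Me1 run in parallel, while the first Cat probe leaves the second on S588.

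No other peroxiredoxin passed, and the main probes of all 5 others were lower on average, by -0.38 (Prdx1), -0.27 (Prdx4), -0.23 (Prdx5), -0.17 (Prdx2) and -0.12 (Prdx3) on the log2 scale. For Prdx1, a cytosolic peroxiredoxin, the signals ranged from 14.16 to 14.97 on the controls and from 14.03 to 14.62 on the exposed arrays (95% interval of the difference -0.88 to 0.12). A dimmer Prdx1 probe had groups apart (-0.33, adjusted p = 0.442).

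Among the glutathione peroxidases, none of 6 passed (limma, and none had an unadjusted p under 0.05). Gpx4, which reduces lipid hydroperoxides in membranes and was the brightest of the class, read 16.09, 16.13, 15.89 and 15.92 on the controls and 16.00, 15.85, 16.12 and 15.73 on the exposed arrays. The groups overlapped throughout, and the difference was -0.08 (95% interval -0.41 to 0.24), which turned to 0.0075 when arrays were scaled to their 75th percentile. Gpx1, the cytosolic enzyme, differed by -0.02 (95% interval -0.33 to 0.28). Gpx2, known from the gut epithelium, had the widest difference of the class, -0.71 (95% interval -1.43 to 0.01, adjusted p = 0.414). Its controls fell into a high pair (controls 2 and 3, at 15.48 and 15.65) and a low pair (controls 1 and 4, at 14.60 and 14.53), and the exposed arrays ranged from 14.09 to 14.79. The thyrocyte score was also highest on controls 2 and 3, and its part in the Gpx2 values was not tested. Gpx3, a secreted form, differed by 0.38, Gpx8 by 0.19 and Gpx7 by -0.37, with overlapping groups.

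Of the superoxide dismutases and catalase, none of 4 passed, and 1 had an unadjusted p under 0.05. Sod1, the cytosolic copper and zinc enzyme, read 16.42, 16.80, 16.96 and 16.51 on the controls and 16.94, 16.48, 16.88 and 16.57 on the exposed arrays. Both groups cover the same range, and the difference of 0.05 (95% interval -0.38 to 0.47) changed sign when single arrays were left out. Sod2, the mitochondrial enzyme, differed by 0.0043 (95% interval -0.32 to 0.33). Sod3, which acts outside the cell, read 13.56, 13.77, 13.76 and 13.62 on the controls and 13.23, 13.53, 13.41 and 13.01 on the exposed arrays, with every exposed thyroid below every control. Its difference was -0.38 (95% interval -0.74 to -0.03, adjusted p = 0.377).

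Catalase had probes that went apart. The brighter read 11.98, 11.70, 11.43 and 11.25 on the controls and 11.55, 13.36, 11.93 and 12.13 on the exposed arrays, with S588 far above the others. The mean difference was 0.65 (95% interval -0.24 to 1.55, adjusted p = 0.527). The second probe read 9.44 on S588, within the controls' range of 8.86 to 9.47, and differed by -0.04 (adjusted p = 0.955). The first holds a run of CA repeats, in capitals below, which the stretch shown of the second lacks, and whether the run plays a part in these values was not tested.
Cat main probe, bases 20 to 49, within chr2:103294487-103294546: tacaacacacatacCACACACACACACACA
Cat second probe, bases 1 to 30: aacagtgctaatgaagacaatgtcactcag

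The thioredoxin and glutaredoxin system had 8 members, none of which passed, and 1 had an unadjusted p under 0.05. Txnrd1, the cytosolic thioredoxin reductase, read 13.29, 13.26, 13.21 and 13.13 on the controls and 13.41, 13.34, 13.38 and 13.58 on the exposed arrays. Its groups did not overlap, at a small difference of 0.20 (95% interval -0.08 to 0.48, adjusted p = 0.532). Srxn1, the sulfiredoxin that repairs over-oxidised peroxiredoxins, read 12.61, 12.27, 12.15 and 12.42 on the controls and 12.54, 12.85, 12.80 and 13.32 on the exposed arrays. S539 lay below control 1, and the other exposed arrays above all controls. The difference was 0.51 (95% interval 0.06 to 0.97, adjusted p = 0.361). Txnip, an inhibitor of thioredoxin, differed by 0.25, Txnrd2 by 0.23, and the thioredoxins Txn1 and Txn2 by -0.16 and -0.04.

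Glrx2, the mitochondrial glutaredoxin, was the brightest probe of this class and read between 18.70 and 18.97 on all 8 arrays (difference 0.04, 95% interval -0.25 to 0.32). This probe shares runs of 20 bases with probes of 10 other gene names on the array, counted over its whole length. The run in capitals below is shared with 5 or more of them. That run is of the B1 family of short repeats, which is spread over the mouse genome and its transcripts. The other Glrx2 probes, which lack it, differed by -0.21 (adjusted p = 0.570) and -0.31 (adjusted p = 0.756), and the bright signal was not taken as the level of Glrx2.
Glrx2 main probe, bases 24 to 53, within chr1:145596708-145596767: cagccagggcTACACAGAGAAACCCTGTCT
Glrx2 second probe, bases 1 to 30, within chr1:145593845-145593904: tgtggattgccttcataaagatgattcaga

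In the synthesis of glutathione, Gclc and Gclm are the catalytic and modifier subunits of the first and rate-limiting enzyme, Gss makes glutathione in the second step, and Gsr returns the oxidised form. Gss read 9.11, 9.35, 9.38 and 9.44 on the controls and 10.44, 9.93, 10.46 and 9.98 on the exposed arrays. All exposed arrays were above all controls, in a higher pair (S539 and S589) and a lower pair. The difference was 0.88 (SE 0.18, 1.84-fold, adjusted p = 0.0886), and Gss, like Hmox1, passed under other background treatments (adjusted p = 0.0454 with normexp).

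Neither subunit of the first enzyme passed. Gclc read 11.53, 11.64, 11.75 and 11.31 on the controls and 11.84, 11.50, 11.69 and 11.63 on the exposed arrays (difference 0.11, 95% interval -0.24 to 0.45). Gclm read 8.31, 8.99, 8.93 and 8.70 against 8.79, 8.71, 9.20 and 8.86 (difference 0.16, 95% interval -0.30 to 0.62). Both had overlapping groups. Gsr read 12.59, 12.55, 12.71 and 12.50 on the controls and 12.30, 12.56, 12.66 and 12.55 on the exposed arrays (difference -0.07, 95% interval -0.38 to 0.24), with S539 the lowest.

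The glutathione S-transferases were the largest class, with 16 members on the array. None passed by limma, and 8 were above and 8 below 0. An unadjusted p under 0.05 was found for 4 of the 16 (1 higher, 3 lower). Over all RefSeq genes the share was 14.6% (6.47% higher and 8.13% lower). The theta class, whose genes Gstt1, Gstt2 and Gstt3 are neighbours on chromosome 10, held the lowest of them. Gstt3 read 13.16, 14.08, 14.38 and 13.41 on the controls and 12.58, 12.61, 12.58 and 12.69 on the exposed arrays. The exposed arrays were all lower and nearly equal (SD 0.055), while the controls varied (SD 0.57). The difference was -1.14 (95% interval -1.78 to -0.51, 2.21-fold, adjusted p = 0.143).

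Gstt2 read 12.21, 12.79, 12.92 and 12.23 on the controls and 12.19, 12.00, 12.19 and 11.69 on the exposed arrays. The groups were apart by a narrow margin, at -0.52 (95% interval -1.03 to -0.01, adjusted p = 0.403). Gstt1 differed by 0.03 (95% interval -0.47 to 0.54). All 3 theta genes were higher on controls 2 and 3 than on controls 1 and 4. Gpx2 and the thyrocyte score had the same split. It was not particular to these genes, as many other members had it too, among them Sod1, Txn1, Mgst1 and Gsta3. The part of thyrocyte content in any of them was not tested.

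Gstm5, of the mu class, read 12.53, 12.43, 12.35 and 12.80 on the controls and 11.78, 11.97, 11.97 and 12.27 on the exposed arrays. Every exposed thyroid was below every control, at -0.53 (95% interval -0.91 to -0.15, adjusted p = 0.254). The other mu genes lay near 0, at 0.03 (Gstm1), 0.15 (Gstm2), 0.07 (Gstm3) and 0.04 (Gstm4). Gstm1, the brightest transferase here by its main probe, read 14.95, 15.37, 15.41 and 15.33 on the controls and 15.58, 15.05, 15.30 and 15.25 on the exposed arrays, and the groups overlapped. The array file places its main probe on chromosome 5 and its second probe on chromosome 3, where the probes of the other mu genes lie. The second probe had a mean log2 signal of 13.42, below the main probe of Gstm2 (14.85), and differed by 0.04. Both are shown because only the second can be tied to the mu cluster by its position.
Gstm1 main probe, within chr5:117082490-117082549: tgttcctggtggaggagcctccccaggcct
Gstm1 second probe, within chr3:107815595-107815654: atcgcaacacctatattttcaaagatggcc

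Gsta3, an alpha-class transferase, had the largest mean difference above 0 in the class, with groups that overlapped. It read 11.56, 12.40, 12.85 and 12.00 on the controls and 13.73, 12.62, 12.75 and 13.95 on the exposed arrays. S539 and S590 were above all other arrays, and S588 and S589 lay below control 3. The difference was 1.06 (95% interval 0.14 to 1.98, adjusted p = 0.347), and its second probe gave the same order of arrays within each group (0.96, adjusted p = 0.383). Mgst3, a microsomal enzyme, read 13.51, 12.60, 12.42 and 13.60 on the controls and 12.21, 13.05, 12.31 and 13.05 on the exposed arrays. It was highest on controls 1 and 4, and on S588 and S590 among the exposed, as was the muscle score. Its difference was -0.38 (95% interval -1.19 to 0.43), and the part of muscle was not tested. The other members of the class ranged from -0.44 (Gsta2) to 0.11 (Mgst1).

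**Figure D4:**
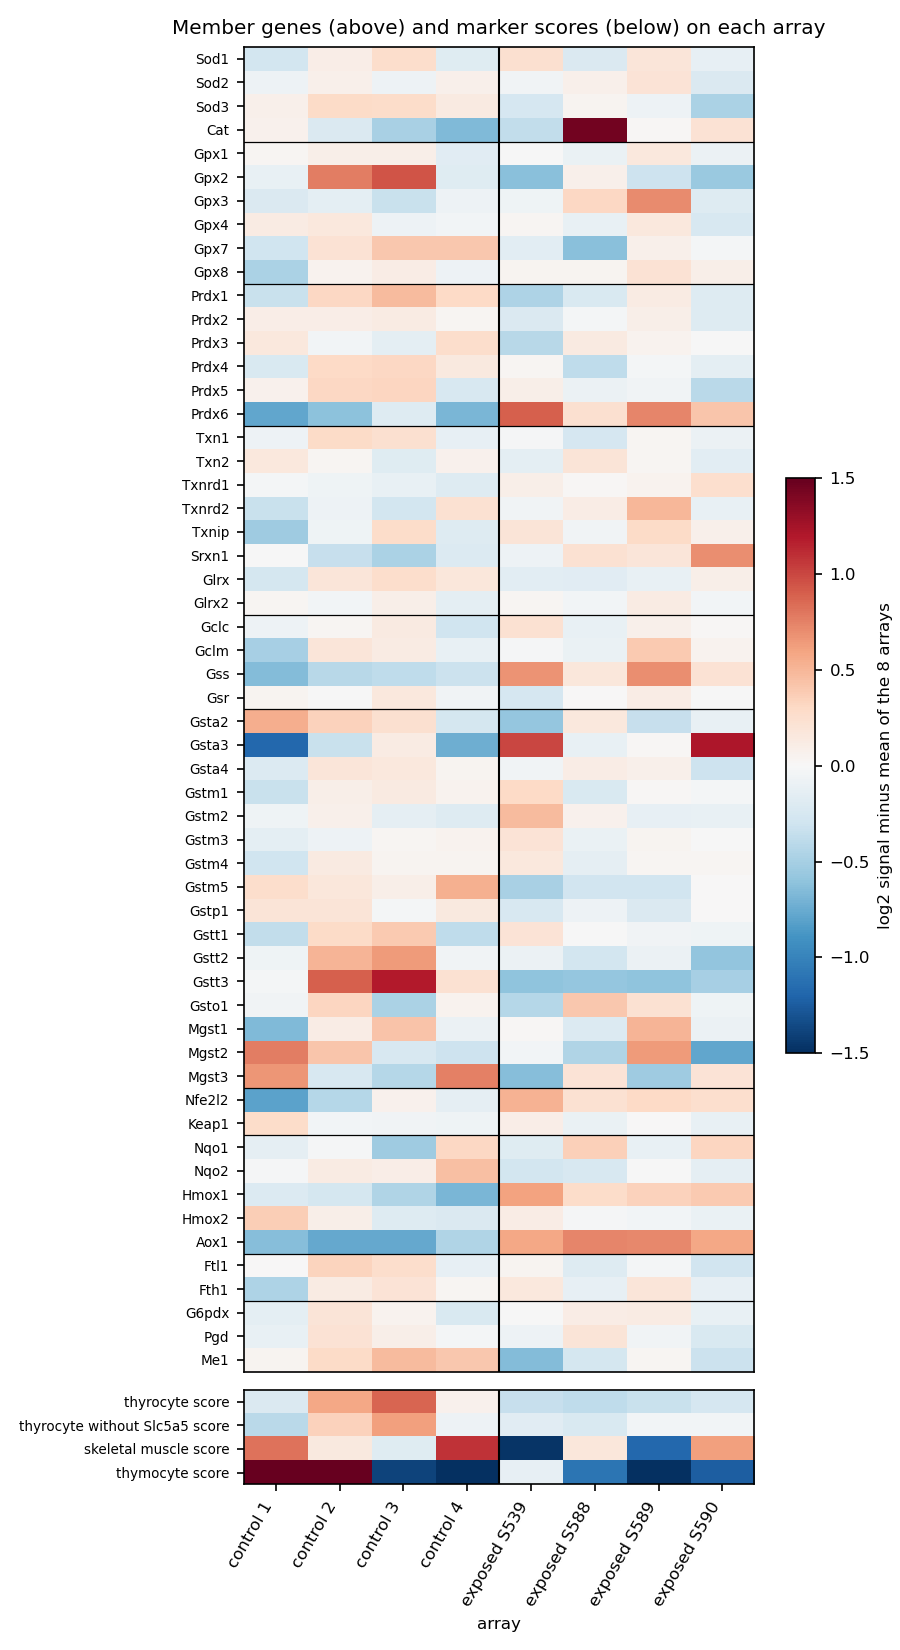
Log2 signal of the main probe of each member on each array, after subtracting its mean over the 8 arrays, with the marker scores of thyrocytes, skeletal muscle and thymocytes below on the same colour scale, which ends at -1.5 and 1.5. Horizontal lines separate the roles. Gpx2, Gstt2 and Gstt3 are highest on controls 2 and 3, as are the thyrocyte score and other members such as Prdx5 and Txn1.

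Ferritin, which stores iron in a form that cannot feed radical reactions, did not differ beyond its spread. Fth1, the heavy chain, read 17.40, 17.98, 18.06 and 17.89 on the controls and 18.01, 17.74, 18.04 and 17.74 on the exposed arrays. Control 1 was the lowest of the 8, and the difference of 0.05 (95% interval -0.38 to 0.47) changed sign without it. Ftl1, the light chain, differed by -0.23 (95% interval -0.60 to 0.13).

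Of the enzymes that make NADPH, G6pdx and Pgd of the pentose phosphate pathway differed by 0.06 (95% interval -0.27 to 0.40) and -0.09 (95% interval -0.42 to 0.25). Me1, cytosolic malic enzyme, which is known as a target of thyroid hormone in liver, read 14.63, 14.88, 15.07 and 15.00 on the controls and 13.94, 14.33, 14.62 and 14.27 on the exposed arrays. Each exposed array was lower than each control, S589 by very little. The difference was -0.60 (95% interval -1.03 to -0.18, adjusted p = 0.244). The second Me1 probe differed by -0.73, with groups apart (adjusted p = 0.197), and the third by -0.51, with groups that overlapped (adjusted p = 0.310).

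The antioxidant response element was looked for in the promoters RefSeq gives for 50 of the 57 members (250 bases before to 50 after the start, GRCm38.p6). The letters TGACNNNGC, on either strand, occurred in those of 12 members (24%) and in 14% of all 27025 genes with a promoter in that table. Members with more than 1 promoter have more chances of a match, and counted by promoter the shares were 17.4% of 69 and 12.4% of 32851. Of the 11 members with groups apart, the letters were found in Nfe2l2, Txnrd1, Me1 and Gstm5, which lie on both sides of 0. Txnrd1 and Me1 also have promoters in that table without the letters. The letters were not found in the promoters of Aox1, Gss and Gstt3, and bases farther from the start were not searched. The table holds no promoter for Prdx6, Hmox1, Sod3 and Gstt2. A match is a description of these letters only. The stretches around the matches, in the direction of transcription with the matching letters in capitals, are shown for these 4 genes and for Gsta3.
Nfe2l2, chr2:75704869-75704913, minus strand: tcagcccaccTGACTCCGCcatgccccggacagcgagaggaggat
Txnrd1, chr10:82859088-82859148, plus strand: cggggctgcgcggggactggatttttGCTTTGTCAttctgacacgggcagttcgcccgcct
Me1, chr9:86695886-86695946, minus strand: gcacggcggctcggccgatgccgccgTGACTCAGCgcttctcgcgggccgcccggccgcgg
Gstm5, chr3:107895786-107895846, plus strand: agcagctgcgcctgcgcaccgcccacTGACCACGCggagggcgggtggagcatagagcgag
Gsta3, chr1:21240438-21240498, plus strand: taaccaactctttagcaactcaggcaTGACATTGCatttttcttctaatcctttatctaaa
The Txnrd1 match reads on the opposite strand, the Me1 match crosses the start of transcription, and the Nfe2l2 match begins 240 bases before it.

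A second list of 62 genes of the same pathways that are no members (partners of Nfe2l2, transporters, further transferases, reductases and sestrins) had 61 on the array. Of these 3 passed, all higher (4.92%, against 0.904% of all RefSeq genes in that direction), and none was lower by limma, where 2 had an unadjusted p under 0.05. This list was chosen with earlier results of these data known, so that its share above the background is no result about the pathway. Ephx1, microsomal epoxide hydrolase, read 14.91, 15.03, 15.66 and 15.55 on the controls and 17.52, 16.92, 17.16 and 17.14 on the exposed arrays, and rose by 1.90 (SE 0.22, 3.73-fold, adjusted p = 0.0151). Sesn2, a sestrin that is known as a target of p53 and lowers peroxide stress, read 11.36, 11.22, 11.36 and 11.18 against 13.65, 12.82, 12.85 and 12.94, and rose by 1.78 (SE 0.21, 3.44-fold, adjusted p = 0.0142). Maff, a small Maf protein of the kind that pairs with Nfe2l2 on DNA, read 10.16, 10.05, 9.94 and 10.13 against 11.43, 10.93, 11.02 and 10.89, and rose by 1.00 (SE 0.16, 2.00-fold, adjusted p = 0.0399).

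S539 had the highest exposed signal for all 3 of these genes. Of the 6 higher members with groups apart, it was so for Prdx6, Hmox1 and Nfe2l2. The others were highest on S588 (Aox1), S589 (Gss) and S590 (Txnrd1). Without control 2 or without S590 none of the 3 passed. Of the list 9 genes had groups apart (8 higher, 1 lower, 14.8%), against 11.7% of all RefSeq genes. The median log2 difference over the 61 genes was -0.03.

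**Figure D5:**
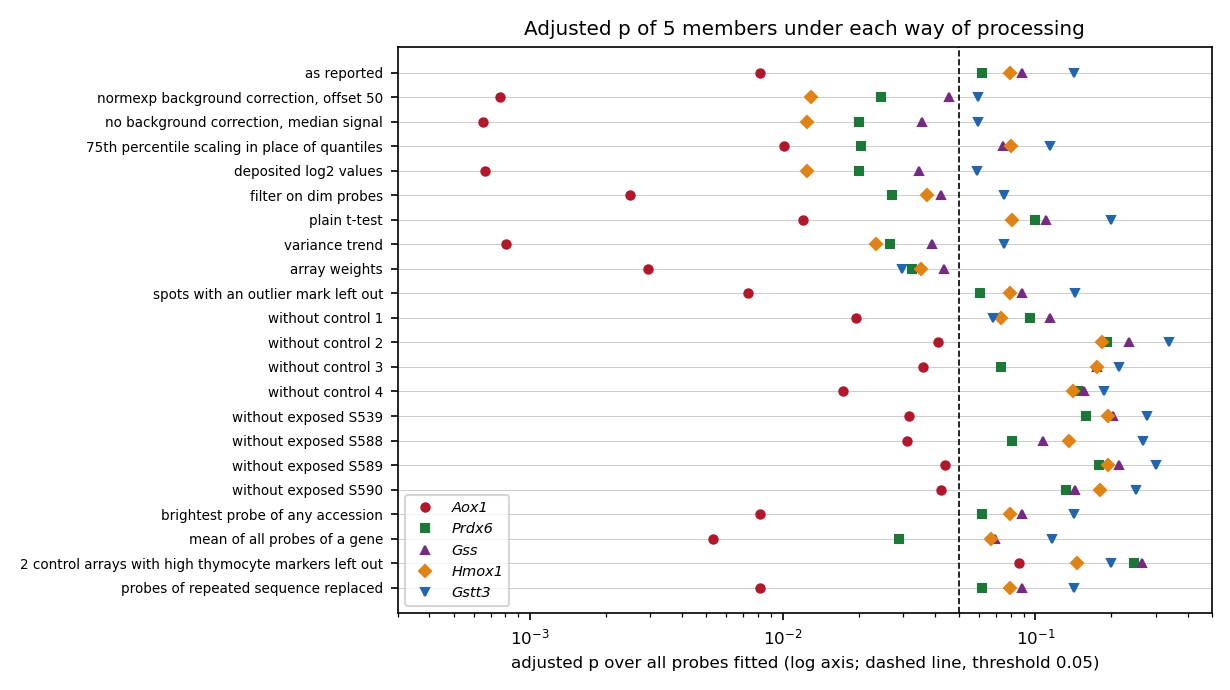
Adjusted p, on a log axis, of 5 members under each way of processing the arrays, with the dashed line at the threshold of 0.05. Aox1 is left of the line in all settings but that without both control arrays rich in thymocyte markers; Prdx6, Hmox1 and Gss cross it under several.

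The calls of Prdx6, Gss and Hmox1 depended on the processing. Of the 21 alternatives, Prdx6 passed in 8 and Gss and Hmox1 each in 6, and in none of those that left out an array. Gstt3 passed in 1, with array weights. Their log2 differences kept their direction throughout, between 1.01 and 1.29 for Prdx6.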

How the data were processed

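Thyroid RNA of 4 control and 4 exposed mice was labelled with Cy3 and hybridised to SurePrint G3 mouse arrays, 1 per sample. The authors deposited the scanner output of Agilent Feature Extraction 10.7.3.1, which gives the intensity of each spot with and without background subtraction. A table of log2 values was deposited too. The methods name limma, without a version, and a quantile normalization of the slides, but no signal column. The deposited log2 values matched quantile-normalized median signals within 0.0378 (median difference 0.0113), so they carry no background subtraction.

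Here the log2 of the background-subtracted intensity was quantile-normalized over the 59305 spots that are no controls, and replicate spots were averaged to probes. Exposed and control arrays were compared with lmFit and eBayes (limma 3.58.1, R 4.3.3) over all 55681 probes, with Benjamini-Hochberg adjustment and a threshold of 0.05. Differences are log2, exposed minus control. The exact permutation test (2-sided) ran over the 70 ways to split the arrays into 4 and 4. Members were found by the gene name in the array files, and a gene was read by its RefSeq probe of highest mean signal. Values on every array are given for members that passed or whose groups did not overlap, the brightest of each role, and 8 fixed genes of the pathway (Nfe2l2, Keap1, Nqo1, Hmox1, Gclc, Gclm, Srxn1 and Txnrd1). Those of Cat, Gpx2, Gsta3 and Mgst3 were added after their values were seen. Positions of probes were taken from the array files (mm9). The members and all lists were chosen with earlier results of these data known. 1 thyrocyte marker was taken off its list and is not reported here. The fit was tested on simulated data.

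Per array, 60.5% to 77.3% of spots stood well above background and none was saturated. Precision is limited by how few arrays there are. Scaling, background, filter, test, probe choice and single arrays were varied. Leaving out both thymocyte-rich controls, and replacing probes of repeated sequence (20 bases shared with 5 or more other gene names, or 8 or more CA repeats), were chosen after seeing the data, the latter after the Cat and Glrx2 sequences had been read.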

Additional observations from a re-analysis of the deposited data

Results flagged for a closer look

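Keap1 on control 1 had a log2 signal of 13.06, against 12.72 to 12.74 on the other 3 controls, so this array stood apart from its group. It was the 1 of 112 groups of 4 arrays tested over the member genes in which the gap to the nearest array, 0.933 of the range, was over the 95% limit of Dixon's test, where chance alone gives about 1 in 20 (5.6). Control 1 also had the highest thymocyte score, 3.95. Control 2 had the next highest, 3.01, with a Keap1 signal of 12.74. The part of these cells in the Keap1 values was not tested.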

How the results depend on the processing

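The member genes called numbered 1 (Aox1) with quantile-normalized, background-subtracted signals. They numbered 4 (Aox1, Prdx6, Gss and Hmox1) with normexp correction, without background correction, in the deposited log2 values, with a filter on dim probes and with a variance trend, 5 with array weights (Gstt3 added, lower), 2 (Aox1 and Prdx6) with 75th percentile scaling and with the mean of all probes of a gene, and 1 with each array left out (lowest and highest 1). Member probes called, 2 as reported, were 6 with normexp, without correction, in the deposited values and with the trend, 7 with the filter and with array weights, 5 with percentile scaling, 1 with a plain t-test and 1 with any array left out. Over all probes 435 were called (75.2% higher), against 856 with normexp (68.5%), 962 without correction (67.4%), 955 deposited (67.5%), 577 with 75th percentile scaling (84.7%), 403 without spots marked as outliers (73.4%), 733 with the filter (69.4%), 289 with the plain t-test (79.2%), 744 with the trend (70.2%), 959 with array weights (60.9% higher) and 100 to 485 with arrays left out; without S590 it was 100, without S589 110, without control 2 117, without S539 158, without S588 202, without control 3 219 and without control 4 230. The other pathway genes called, 3 as reported, were 0 to 2 with arrays left out. Without both controls rich in thymocyte markers, 83 probes were called and 0 member genes, 0 member probes and 0 other pathway genes; Aox1 was then at 1.26 (adjusted p = 0.0863). Only 50 of the 56 member genes could be fitted without spots marked as outliers. The median difference of the members stayed within the array spread (SD 0.0989) under every alternative, and percentile scaling moved the median over all probes from 0.0077 to 0.165.

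Of the 22 members followed singly under each alternative, the 7 named here turned in sign, and none of them passed. The other members were not followed singly. Leaving out single arrays gave lows and highs of -0.097 and 0.13 (Fth1), -0.013 and 0.073 (Glrx2), -0.12 and 0.0014 (Gsr), -0.074 and 0.11 (Gstm1), -0.095 and 0.025 (Keap1), and -0.038 and 0.14 (Sod1). Gpx4 turned to 0.0075 with percentile scaling. Array weights gave -0.043 (Fth1), -0.030 (Gstm1) and -0.029 (Sod1). Without the thymocyte-rich controls the values were -0.090 (Fth1), 0.020 (Gpx4), -0.075 (Gstm1), 0.031 (Keap1) and -0.017 (Sod1). Glrx2 was at -0.16 by the mean of its probes and -0.21 with the repeat probe replaced. Of 462 gene values under alternatives, 418 kept direction and side of the threshold, 22 turned, 21 newly passed and 1 no longer passed. The cause of these moves was not tested. No paired analysis was possible because the groups share no replicate numbers.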
